A study of Saccharomyces cerevisiae with 12 samples.

Results

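The 10 genes described here encode amino acid permeases of the yeast plasma membrane: AGP1, GNP1, BAP2, BAP3, TAT1, TAT2, MUP1, CAN1, GAP1 and DIP5. They were chosen by gene name, with earlier results of these data known. Each has 1 line among the 6412 genes and other features counted in every sample apart from the spike-ins. All 10 passed the filter on low counts, which kept 5662 genes. Polyadenylated RNA of budding yeast in the W303 background was sequenced from 3 groups of 4 replicates. CDK/DDK bypass G1 cells (strain YKR1503) carried Dpb11, a phosphorylation-mimicking Sld2 variant and Dbf4 under a galactose-inducible promoter, so that replication can start without the usual control by CDK and DDK. They were held in G1 with the mating pheromone α-factor for 2.5 h, and replication was then induced for 3 h by adding galactose. Wild-type S cells (strain E3087) were also arrested with α-factor for 2.5 h and were harvested 30 min after their release into S phase. Wild-type G1 cells (strain YKR1500) stayed in the arrest and received the same 3 h of induction treatment, without the induced proteins. All cells were grown in rich medium with raffinose and adenine. Each group is a different strain, and wild-type S cells also differ from the others in the time after arrest, so strain, time and condition cannot be told apart.

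Amino acid permeases of this family carry amino acids into the cell together with protons. In budding yeast, a sensor of external amino acids in the plasma membrane, made of Ssy1, Ptr3 and Ssy5, has the transcription factors Stp1 and Stp2 trimmed, after which they enter the nucleus and activate permease genes such as AGP1, GNP1, BAP2, BAP3, TAT1 and TAT2. GAP1 answers instead to the nitrogen source through the GATA factors Gln3 and Gat1, and the permease proteins are also controlled by export from the endoplasmic reticulum and by ubiquitin-dependent endocytosis. Those steps after transcription were not measured here.

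Every member is a single uninterrupted coding exon of 1725 to 1992 bases in the R64 annotation (the S288C genome, sacCer3). The members for branched-chain and aromatic amino acids are BAP2 (YBR068C, chromosome 2, 373861 to 375690), TAT1 (YBR069C, chromosome 2, 376574 to 378433), BAP3 (YDR046C, chromosome 4, 548762 to 550576) and TAT2 (YOL020W, chromosome 15, 286172 to 287950). Those with broad or amide substrates are AGP1 (YCL025C, chromosome 3, 76018 to 77919), GNP1 (YDR508C, chromosome 4, 1466453 to 1468444) and GAP1 (YKR039W, chromosome 11, 515063 to 516871). MUP1 for methionine (YGR055W, chromosome 7, 599417 to 601141), CAN1 for arginine (YEL063C, chromosome 5, 31694 to 33466) and DIP5 for glutamate and aspartate (YPL265W, chromosome 16, 41043 to 42869) have narrower substrates. BAP2 and TAT1 are neighbours on the same strand, 883 bases apart. The most alike coding sequences were those of AGP1 and GNP1, with 72.4% identity over 1865 aligned bases, and those of BAP2 and BAP3, with 70.4% over 1792. Reads can still be told apart, because 99.7% of the 42-base windows (the read length) of AGP1 and GNP1 and 100% of those of the other 8 members occur once in the genome.

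The stretches upstream of 6 members are shown as examples of the motif matches found before the members. They are taken from the RefSeq R64 genome, read on the strand of the gene, and may differ from the W303 strains used. Matches were sought on both strands in the 500 bases before the start codon of 5968 genes, and positions count back from the start codon. Capitals mark CGGC, a core within described Stp1 and Stp2 elements, in TAT1 (chr2:378814-378913, minus strand) and BAP3 (chr4:550927-551066, minus strand). In BAP2 (chr2:376051-376130, minus strand) they mark the site of the leucine pathway regulator Leu3, CCGG and CCGG with 2 bases of any kind between them. In CAN1 (chr5:33717-33766, minus strand) and GAP1 (chr11:514713-514832, plus strand) they mark GATAAG, the site of GATA factors, on either strand. In DIP5 (chr16:40993-41022, plus strand) they mark TGAAACA, the pheromone response element bound by Ste12.
TAT1: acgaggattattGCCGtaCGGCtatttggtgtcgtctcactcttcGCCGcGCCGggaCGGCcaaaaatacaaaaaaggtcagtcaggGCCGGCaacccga
BAP3: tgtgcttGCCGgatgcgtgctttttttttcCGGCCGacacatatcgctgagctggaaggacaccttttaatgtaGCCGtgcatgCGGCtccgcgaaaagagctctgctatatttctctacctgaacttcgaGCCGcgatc
BAP2: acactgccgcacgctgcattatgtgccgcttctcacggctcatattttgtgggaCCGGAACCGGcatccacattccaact
CAN1: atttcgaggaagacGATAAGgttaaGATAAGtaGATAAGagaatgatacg
GAP1: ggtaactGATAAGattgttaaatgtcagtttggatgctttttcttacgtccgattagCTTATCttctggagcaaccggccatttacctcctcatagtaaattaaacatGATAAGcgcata
DIP5: caatataaggtacaagTGAAACAcaggaaa

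CGGC occurred in 9 of the 10 members and in 68.9% of all promoters, so its presence alone sets no member apart. Its number per promoter had a median of 1 over all promoters, and 5 or more matches were found in 3.40% of them. Of the members, 5 had that many: MUP1 with 9, TAT1 with 7, BAP2 and BAP3 with 6 each and GNP1 with 5. AGP1 had 4, TAT2 and GAP1 had 3 each, CAN1 had 1 and DIP5 had none. GATAAG stood before 3 members, with 4 matches in GAP1, 3 in CAN1 and 2 in AGP1. It was found in 22.7% of all promoters, and 0.536% of all promoters had 3 or more matches. TGACTC, the site of the general amino acid control factor Gcn4, was found in AGP1, BAP2, CAN1 and MUP1, the last with 2 matches, and in 12.6% of promoters. The Leu3 match of BAP2 at -386 is 1 of 16 such promoters (0.268%), and its last bases overlap a CGGC match. BAP3 had CGCGAAA, the site of the G1/S factor SBF, at -400 (5.85% of promoters), and DIP5 had TGAAACA at -34 (12% of promoters). Neither ACGCGT, the site of MBF (5.43% of promoters), nor CACGTG, the site of Cbf1 (6.25%), was found before any member. These are matches of letters, and binding was not measured. The only matches to different motifs that overlap among the members are those in BAP2.

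Depth, as the sum of gene counts in a sample, was 8999319 to 10460014 in CDK/DDK bypass G1, 8162140 to 10545835 in wild-type S and 9324840 to 10341693 in wild-type G1, and the lowest count of any member in any sample was 526 (DIP5). The labels were checked by marker genes. Summed levels of 6 S-phase markers were 574 to 663 TPM (counts per gene length, scaled to the same total in every sample) in bypass G1, 7118 to 7503 in wild-type S and 304 to 390 in wild-type G1. Those of 6 a-cell markers were 28567 to 30313 TPM in bypass G1, 678 to 1133 in wild-type S and 30844 to 34672 in wild-type G1. One of them, BAR1, which encodes the protease that degrades α-factor, had a mean of 0.261 TPM in bypass G1, 14.9 in wild-type S and 0.434 in wild-type G1. The study used different doses of α-factor for cells with and without BAR1, and the BAR1 genotype of these strains was not known here. The 6 galactose genes summed to 17808 to 18401 TPM in bypass G1, 16860 to 18421 in wild-type S and 15155 to 17494 in wild-type G1, so all 3 groups expressed them. In each group, replicates 1 and 2 resembled each other, as did replicates 3 and 4, and values within these pairs are also given for members and other named genes whose result differed between the pairs. The difference in counts between libraries of a group, as a chi-square per gene, was 1.48 to 2.43 within these pairs and 3.02 to 46.6 between them. The labels do not say what the pairs share, nor that replicates are separate cultures, so p-values measure only the spread between these samples. Those from a single pair of replicates per group measure only the smaller spread within pairs, and are not comparable with those from all replicates.

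On a scale per gene length, GNP1, BAP2 and MUP1 were the most abundant permease transcripts in all groups, and DIP5 or GAP1 was the least abundant. GNP1 had 322 ± 9.56 TPM in bypass G1, 403 ± 19.96 in wild-type S and 323 ± 5.41 in wild-type G1 (SD, n = 4 each). In bypass G1 it stood above BAP2 (279 ± 4.24 TPM), in wild-type S its values overlapped with those of MUP1 (371 ± 16.4 TPM), and in wild-type G1 BAP2 stood first with 371 ± 15.2 TPM, apart from GNP1. TAT2 came next in bypass G1 (146 ± 7.13 TPM) and in wild-type G1 (121 ± 7.37 TPM), without overlap with the genes on either side of it. In wild-type S that place was held by TAT1 with 225 ± 4.21 TPM, followed by BAP3 (182 ± 1.62) and then TAT2 (161 ± 4.23), all apart from each other. In the G1 groups TAT1 was eighth, at 63.8 ± 3.29 TPM in bypass G1 and 57.3 ± 12.4 TPM in wild-type G1, and overlapped with CAN1 and GAP1 in both. BAP3 and AGP1 also could not be put in order in either G1 group. By mean TPM over all samples, the members lay between the 50.4th percentile (DIP5) and the 91.1st percentile (GNP1) of 6176 genes.

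**Figure D1:**
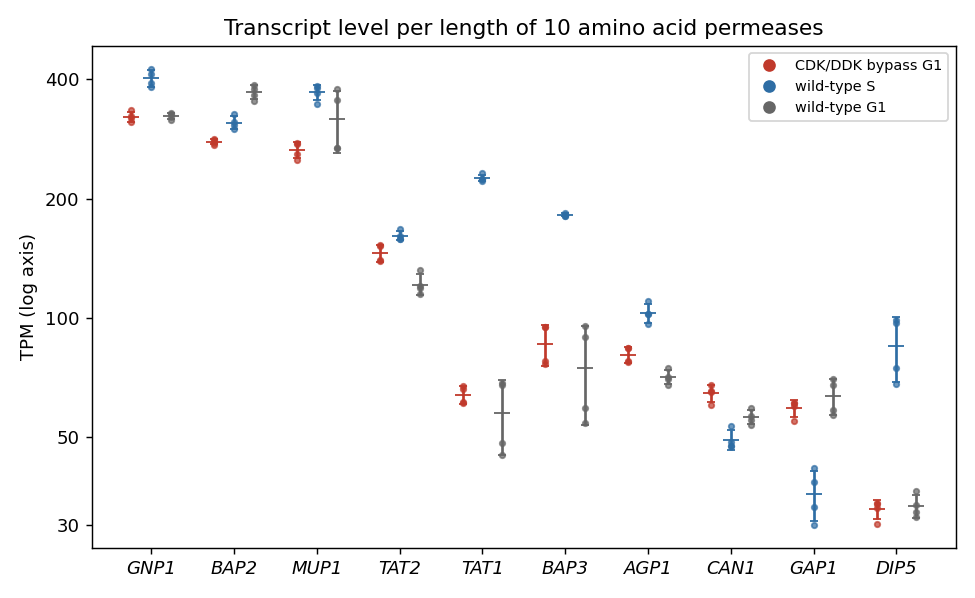
Transcript level of each permease in TPM (log axis), with 1 point per replicate and bars for the mean ± SD of 4 replicates, for CDK/DDK bypass G1, wild-type S and wild-type G1 from left to right in each gene. TAT1 reaches 225 TPM in wild-type S, against 57.3 TPM in wild-type G1, and GAP1 is the lowest permease in wild-type S at 35.9 TPM.

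Together the 10 permeases made up 1398 ± 48.5 TPM in bypass G1, 1926 ± 71.6 in wild-type S and 1489 ± 97.5 in wild-type G1. TAT1 contributed 4.56% ± 0.0978 of it in bypass G1, 11.7% ± 0.465 in wild-type S and 3.82% ± 0.620 in wild-type G1. The share of BAP2, in contrast, was 19.9% ± 0.410 in bypass G1, 16.2% ± 0.307 in wild-type S and 25.0% ± 1.97 in wild-type G1. TPM serve here to compare genes with each other, and set wild-type S lower against the G1 groups than the scaling used for comparisons between groups does (BAP2 311 ± 12.1 TPM in wild-type S and 371 ± 15.2 TPM in wild-type G1, against 616 ± 25.5 and 657 ± 22.6 on that scale). All comparisons between groups below use CPM (counts scaled by TMM-normalized library size) and edgeR's quasi-likelihood test, with p-values adjusted over all 5662 genes and a gene called below 0.1.

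Bypass of CDK and DDK control in G1 was accompanied by small differences in permease transcripts relative to wild-type G1, none as large as 1 on the log2 scale. AGP1, TAT2 and CAN1 rose and BAP2 and MUP1 fell, so 5 of 10 members were called, against 54.5% of all genes tested. The 3 that rose compare with 26% of all genes called higher, and the 2 that fell with 28.5% called lower. The groups did not overlap in CPM for 4 members, against 44% of all genes. The median log2 fold change was 0.07 for the members and -0.02 for all genes, and the median size was 0.19 and 0.18. On these counts the permeases changed about as often as other genes. In RNA from whole cultures, a different share of cells with a transcript and a different level per cell cannot be told apart.

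In wild-type S relative to wild-type G1 the changes were larger. AGP1, GNP1, BAP3, TAT1, TAT2, MUP1 and DIP5 rose, GAP1 and BAP2 fell, and only CAN1 was not called. The 9 members called compare with 83.8% of all genes, the 7 that rose with 40.4% called higher and the 2 that fell with 43.3% called lower. For 8 members the groups did not overlap, against 73.9% of all genes. The median log2 fold change was 0.53 for the members and -0.02 for all genes, and the median size was 0.62 and 0.50. In bypass G1 relative to wild-type S all 10 members were called, against 85.1% of all genes, and the groups overlapped for none of them, against 81.7% of all genes without overlap. GAP1 and CAN1 were higher in bypass G1 (43.6% of all genes called higher) and the other 8 were lower (41.5% called lower), with a median of -0.50 for the members and 0.02 for all genes and a median size of 0.54 for both. The comparisons share their samples, so they are not independent of each other.

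**Figure D2:**
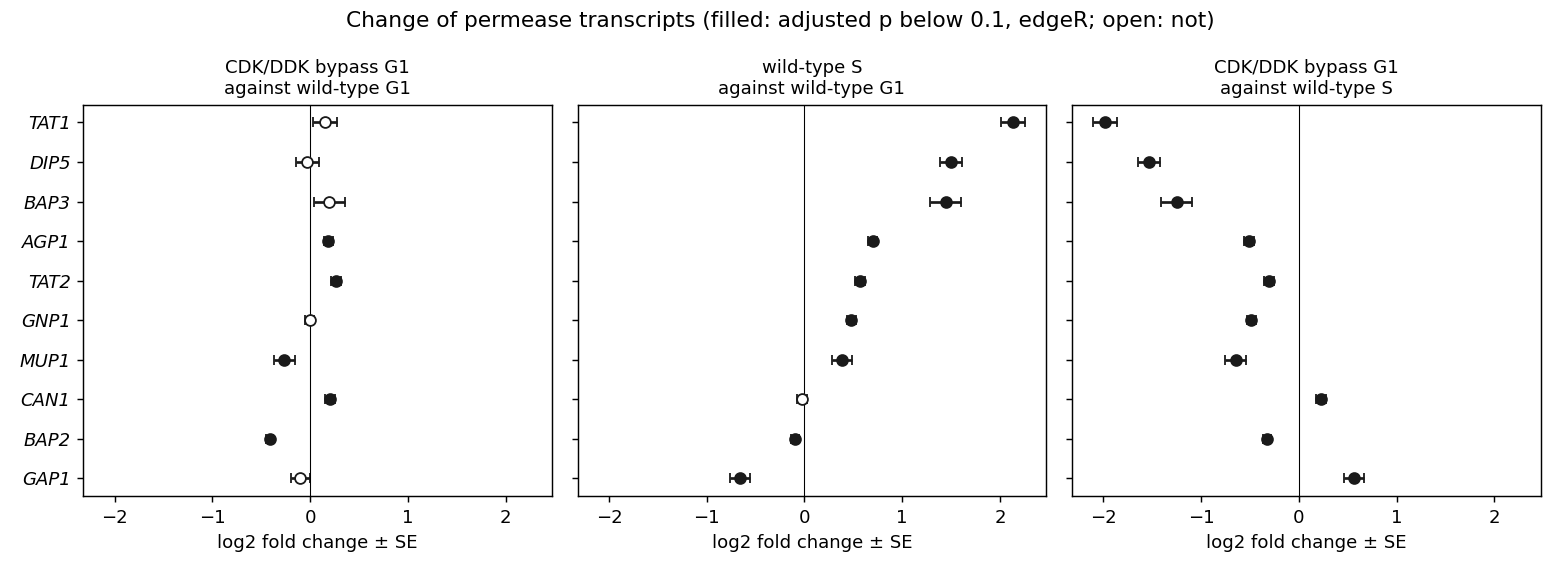
Log2 fold change ± SE of each permease in the 3 comparisons, with filled points for an adjusted p below 0.1 and open points otherwise. Values lie between -0.42 and 0.26 in CDK/DDK bypass G1 against wild-type G1, whereas TAT1, DIP5 and BAP3 lie above 1 in wild-type S against wild-type G1 and below -1 in CDK/DDK bypass G1 against wild-type S.

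TAT1, a permease for valine, leucine, isoleucine and tyrosine, showed the largest change of the family. Its values were 118, 121, 110.2 and 109.9 CPM in bypass G1, 456, 451, 463 and 443 CPM in wild-type S, and 125, 123, 85.5 and 80.4 CPM in wild-type G1. Wild-type S stood apart from both G1 groups, with 4.39-fold more transcript than wild-type G1 (log2 fold change 2.13 ± 0.122 SE, adjusted p = 2.56e-09) and a log2 fold change of -1.98 ± 0.121 in bypass G1 against wild-type S (adjusted p = 4.65e-09). The 2 G1 groups overlapped, and their log2 difference of 0.15 ± 0.121 did not pass the test (adjusted p = 0.330). From wild-type G1 to wild-type S, the pair means went from 124 to 454 CPM in replicates 1 and 2 and from 82.9 to 453 CPM in replicates 3 and 4. Within wild-type G1, replicates 1 and 2 were 1.49 times as high as replicates 3 and 4. Accordingly, bypass G1 against wild-type G1 gave -0.04 with replicates 1 and 2 only (adjusted p = 0.495) and 0.40 with replicates 3 and 4 only (adjusted p = 2.49e-08), and without wild-type G1 replicate 1 the difference was called (0.26, adjusted p = 0.0893).

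BAP3, the second permease for branched-chain amino acids and cysteine, followed the same order of groups. It had 165, 166, 137 and 134 CPM in bypass G1, 359.7, 363, 352 and 355 CPM in wild-type S, and 159, 169, 102 and 94.6 CPM in wild-type G1. Again wild-type S lay above all G1 samples, and the G1 groups overlapped. BAP3 rose by 1.45 ± 0.160 in wild-type S against wild-type G1 (adjusted p = 2.09e-06) and was lower in bypass G1 than in wild-type S by a log2 fold change of -1.25 ± 0.159 (adjusted p = 7.36e-06). From wild-type G1 to wild-type S, the pair means went from 164 to 361 CPM in replicates 1 and 2 and from 98.4 to 354 CPM in replicates 3 and 4. The difference between bypass G1 and wild-type G1 was 0.20 ± 0.160 (adjusted p = 0.337). It depended on the pair of replicates, with 0.02 for replicates 1 and 2 only (adjusted p = 0.672) and 0.45 for replicates 3 and 4 only (adjusted p = 2.47e-10), and without wild-type G1 replicate 2 it was called (0.34, adjusted p = 0.0788).

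BAP2, the leucine permease beside TAT1 on chromosome 2 and the closest relative of BAP3 by sequence among the members, had another order of groups. Its values were 497, 498, 485 and 490.4 CPM in bypass G1, 613, 649.6, 614 and 587 CPM in wild-type S, and 632, 677, 676 and 644 CPM in wild-type G1. Bypass G1 was the lowest group, without overlap with either other group. BAP2 was the permease with the largest change in bypass G1 against wild-type G1, a log2 fold change of -0.42 ± 0.0401 (0.75 of the wild-type G1 level, adjusted p = 6.01e-06), and it fell relative to wild-type S by 0.32 ± 0.0401 (adjusted p = 5.83e-06). Wild-type S and wild-type G1 overlapped, and their log2 fold change of -0.09 ± 0.0400 was called at an adjusted p of 0.0457. That call was lost without wild-type S replicate 4 (-0.07, adjusted p = 0.139), without wild-type G1 replicate 2 (-0.08, adjusted p = 0.112) and with replicates 1 and 2 only (-0.04, adjusted p = 0.321).

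TAT2, the high-affinity permease for tryptophan and tyrosine, differed between all groups. It had 259, 262, 239.7 and 242 CPM in bypass G1, 308, 310.0, 319.8 and 302.5 CPM in wild-type S, and 209, 229, 201 and 196 CPM in wild-type G1. No sample of one group fell into the range of another. TAT2 rose by 0.26 ± 0.0509 in bypass G1 against wild-type G1 (adjusted p = 0.00107) and by 0.57 ± 0.0509 in wild-type S against wild-type G1 (adjusted p = 2.36e-07), and bypass G1 stayed below wild-type S (log2 fold change -0.31 ± 0.0507, adjusted p = 8.17e-05).

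AGP1, a permease of broad specificity and low affinity that carries asparagine and glutamine among others, showed the same order as TAT2. AGP1 had 153, 154, 143 and 143 CPM in bypass G1, 213, 227, 209 and 196 CPM in wild-type S, and 126, 130.3, 135 and 129.5 CPM in wild-type G1. The 3 groups did not overlap. It rose by 0.19 ± 0.0485 in bypass G1 against wild-type G1 (adjusted p = 0.00746), a call that was lost with counts summed within the pairs of replicates (0.18, adjusted p = 0.147), and by 0.70 ± 0.0484 in wild-type S against wild-type G1 (adjusted p = 1.88e-08), with a log2 fold change of -0.51 ± 0.0482 in bypass G1 against wild-type S (adjusted p = 3.82e-07). Its paralog GNP1, the high-affinity glutamine permease, differed between wild-type S and both G1 groups. GNP1 had 641, 622, 603 and 616 CPM in bypass G1, 903, 919, 839 and 817 CPM in wild-type S, and 617, 639, 610.1 and 626 CPM in wild-type G1. The G1 groups lay on top of each other (log2 fold change -0.01 ± 0.0441, adjusted p = 0.929), whereas wild-type S was above wild-type G1 by 0.48 ± 0.0442 (adjusted p = 3.25e-07) and bypass G1 was below wild-type S (-0.49 ± 0.0442, adjusted p = 2.58e-07).

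GAP1, the general amino acid permease, had its lowest level in S phase. It had 106, 96.0, 105 and 107 CPM in bypass G1, 76.1, 81.8, 64.7 and 58.2 CPM in wild-type S, and 119.7, 124, 97.8 and 102 CPM in wild-type G1. Wild-type S lay below all other samples, with a log2 fold change of -0.66 ± 0.103 against wild-type G1 (adjusted p = 5.35e-05), and bypass G1 was higher than wild-type S by 0.56 ± 0.104 (adjusted p = 0.000214). Bypass G1 and wild-type G1 overlapped, with a log2 fold change of -0.10 ± 0.101 (adjusted p = 0.448). Here too the pairs of replicates differed: with replicates 1 and 2 only GAP1 was lower in bypass G1 (-0.26, adjusted p = 6.51e-05), and with replicates 3 and 4 only its value was 0.08 (adjusted p = 0.195).

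MUP1, the high-affinity methionine permease, had 455, 460.3, 434 and 419 CPM in bypass G1, 718, 718, 687 and 644 CPM in wild-type S, and 598, 637, 442 and 446 CPM in wild-type G1. Wild-type G1 was thus split into a high and a low pair, and the low pair overlapped with bypass G1. MUP1 rose by 0.38 ± 0.105 in wild-type S against wild-type G1 (adjusted p = 0.00448), and its log2 fold change was -0.65 ± 0.105 in bypass G1 against wild-type S (adjusted p = 7.37e-05). From wild-type G1 to wild-type S, the pair means went from 617 to 718 CPM in replicates 1 and 2 and from 444 to 665 CPM in replicates 3 and 4. The fall in bypass G1 against wild-type G1, by 0.26 ± 0.105, was called at an adjusted p of 0.0557. The value was -0.42 with replicates 1 and 2 only (adjusted p = 7.92e-14) and -0.06 with replicates 3 and 4 only (adjusted p = 0.138). The call was lost without bypass G1 replicate 3 (-0.26, adjusted p = 0.109) or replicate 4 (-0.24, adjusted p = 0.130), and without wild-type G1 replicate 1 (-0.20, adjusted p = 0.151) or replicate 2 (-0.17, adjusted p = 0.171).

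CAN1, the arginine permease, had 110.4, 112, 116 and 103 CPM in bypass G1, 94.2, 91.2, 101 and 90.4 CPM in wild-type S, and 93.1, 102, 95.5 and 94.0 CPM in wild-type G1. It was highest in bypass G1, without overlap with the other groups. The log2 fold change was 0.20 ± 0.0505 in bypass G1 against wild-type G1 (adjusted p = 0.00616) and 0.23 ± 0.0507 in bypass G1 against wild-type S (adjusted p = 0.000954). Wild-type S and wild-type G1 were not distinguishable (-0.03 ± 0.0509, adjusted p = 0.616). The W303 background is known for a loss-of-function CAN1 allele, which counts of reads do not show. DIP5, the permease for glutamate and aspartate, had 59.4, 60.2, 53.3 and 58.7 CPM in bypass G1, 194, 196, 146 and 133 CPM in wild-type S, and 56.1, 57.7, 58.4 and 64.2 CPM in wild-type G1. Wild-type S stood apart, by 2.83-fold over wild-type G1 (SE of 0.113 on the log2 scale, adjusted p = 4.18e-08) and with -1.53 ± 0.113 for bypass G1 against wild-type S (adjusted p = 3.21e-08). The rise in wild-type S against wild-type G1 was 1.79 with replicates 1 and 2 only (adjusted p = 5.52e-31) and 1.19 with replicates 3 and 4 only (adjusted p = 7.04e-22). The G1 groups overlapped, with a difference of -0.03 ± 0.116 (adjusted p = 0.858).

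**Figure D3:**
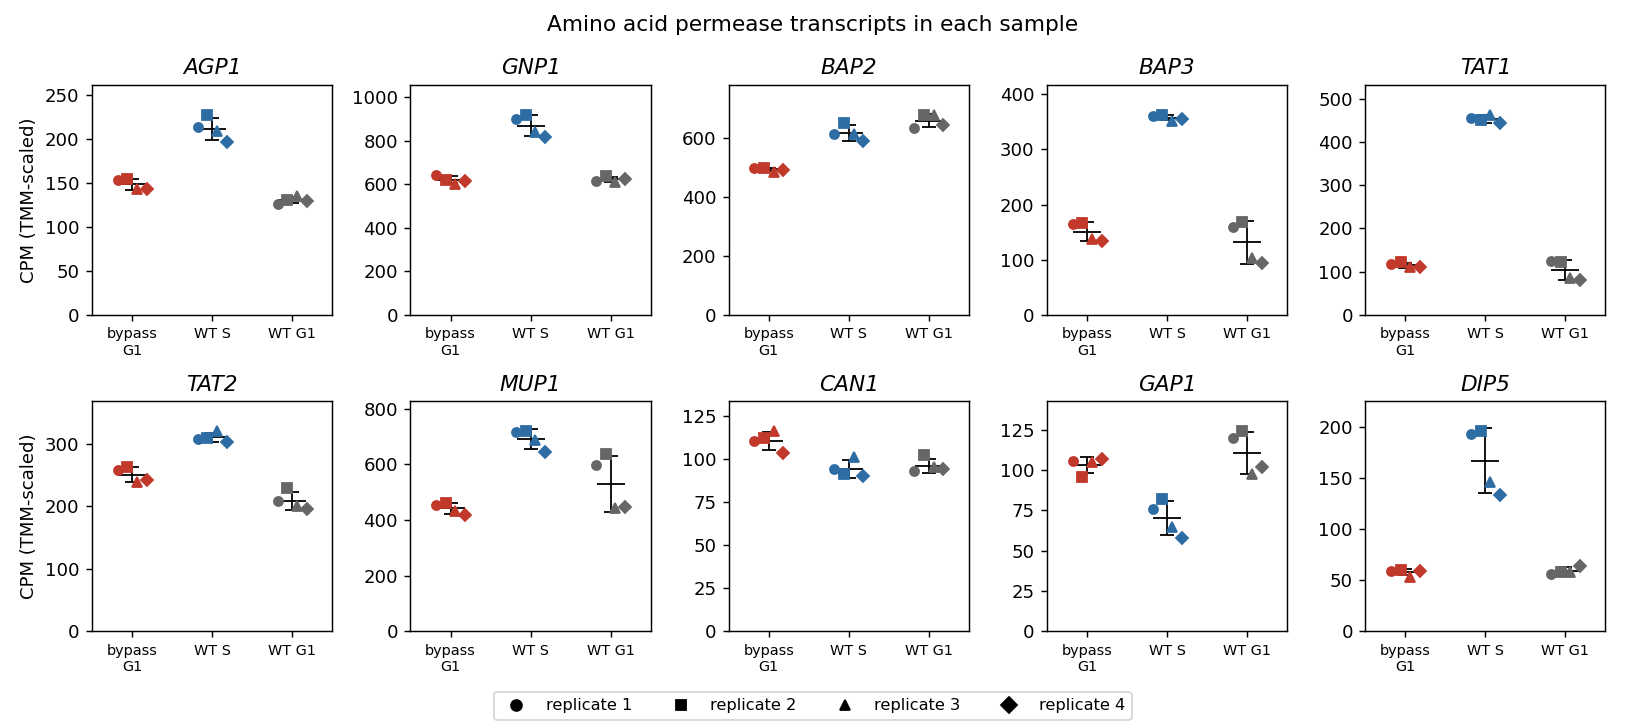
CPM of each permease in the 12 samples, with the mean ± SD of 4 replicates per group and the symbol giving the replicate number; the axes start at 0. In wild-type S the values of TAT1 are 443 to 463 CPM, above all G1 samples, and in wild-type G1 the values of MUP1 split into 598 and 637 CPM for replicates 1 and 2 and 442 and 446 CPM for replicates 3 and 4.

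The split between the pairs of replicates was therefore part of the data on these genes. In wild-type G1, replicates 1 and 2 exceeded replicates 3 and 4 by a log2 difference of 0.73 in BAP3, 0.57 in TAT1, 0.47 in MUP1 and 0.29 in GAP1, and the pairs did not overlap in 6 members, against 73.5% of all genes tested. In wild-type S the largest splits were 0.47 in DIP5 and 0.36 in GAP1, with 6 members without overlap against 53.5% of all genes. In bypass G1 the largest was 0.28 in BAP3, with 8 members without overlap against 45.0% of all genes. Its cause was not tested.

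The scale also matters for the smallest differences. Spike-in counts were 1.81% to 2.02% of gene counts in bypass G1, 1.88% to 2.29% in wild-type S and 2.09% to 2.37% in wild-type G1. On this measure wild-type S overlapped with both G1 groups, and the G1 groups did not overlap with each other. The spike-ins were added to purified total RNA and not per number of cells, so scaling by them does not give transcripts per cell. Relative to the spike-in RNA added to each sample, the median of all genes was 0.20 higher in bypass G1 than in wild-type G1 on the log2 scale, 0.05 higher in wild-type S against wild-type G1 and 0.16 higher in bypass G1 against wild-type S. With that scaling 6 members were called higher in bypass G1 than in wild-type G1 and only BAP2 was called lower (-0.20, adjusted p = 0.0948). Of all genes called there, 91.0% were higher, against 47.7% with TMM. Relative to the median of all genes on the spike-in scale, BAP2 was at -0.40, MUP1 at -0.25, AGP1 at 0.20, TAT2 at 0.28 and CAN1 at 0.22.

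Other amino acid permeases of the plasma membrane, 9 in number, were set beside the members. Counts of called genes in this and the following lists are to be read against the shares of all genes called higher and lower. These were 26% and 28.5% in bypass G1 against wild-type G1 and 40.4% and 43.3% in wild-type S against wild-type G1. They were 43.6% and 41.5% in bypass G1 against wild-type S. A count near these shares does not set a list apart. In bypass G1 against wild-type G1, 1 rose and 4 fell (median log2 fold change -0.10). The largest falls were those of SAM3, the S-adenosylmethionine permease (-1.53 ± 0.139, adjusted p = 3.65e-06), and MMP1, the S-methylmethionine permease (-0.89 ± 0.220, adjusted p = 0.00523), while PUT4, the proline permease, rose by 0.65 ± 0.142 (adjusted p = 0.00239). MMP1 and PUT4 depended on the pair of replicates. MMP1 was at -1.24 with replicates 1 and 2 only and at -0.36 with replicates 3 and 4 only, and was not called with counts summed within the pairs (adjusted p = 0.111). PUT4 was at 1.09 with replicates 1 and 2 only and at 0.28 with replicates 3 and 4 only. In wild-type S against wild-type G1, 5 rose and 3 fell (median 0.28), with MMP1 at 1.27 ± 0.212 (adjusted p = 9.21e-05; 0.98 with replicates 1 and 2 only and 1.76 with replicates 3 and 4 only). Set against wild-type S, bypass G1 had 2 higher and 5 lower (median -0.46). Genes for the permeases' export and sorting, 13 in number, were mainly genes of endocytosis, with SHR3 for export, so their median does not describe export. They were mostly lower in wild-type S when set against wild-type G1 (1 rose and 9 fell, median -0.43). SHR3, whose product packages these permeases for export from the endoplasmic reticulum, was the one that rose there (0.48 ± 0.0524, adjusted p = 1.76e-06), whereas ROG3 and ECM21, arrestin-related adaptors of endocytosis, fell by 1.49 ± 0.0736 and 1.46 ± 0.116 (adjusted p = 5.65e-10 and 7.59e-08). Of these genes, 4 rose and 5 fell in bypass G1 against wild-type G1, and 10 were higher and 2 lower in bypass G1 against wild-type S.

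Transcripts of the amino acid sensor and its factors were read beside their target permeases. Of 11 genes of this pathway, 3 rose and 8 fell in wild-type S against wild-type G1 (median -0.31), against 40.4% and 43.3% of all genes. The list also holds repressors of the pathway, which were among the genes that fell, and a target gene, which rose. Its counts and medians therefore do not describe the activating genes alone. In bypass G1 against wild-type G1, 3 rose and 5 fell (median -0.09), against 26% and 28.5% of all genes. Set against wild-type S, bypass G1 had 7 higher and 3 lower (median 0.21), against 43.6% and 41.5% of all genes. STP2 fell by 1.45 ± 0.0472 in wild-type S against wild-type G1 (adjusted p = 8.13e-12), STP1 by 0.31 ± 0.0389 (adjusted p = 7.44e-06) and SSY1 by 0.60 ± 0.0604 (adjusted p = 7.87e-07), in the comparison in which 7 permeases rose. PTR2, the di- and tripeptide transporter and another target of this pathway, rose there by 2.07 ± 0.123 (adjusted p = 3.85e-09), and DAL81, a co-activator, by 0.25 ± 0.0610 (adjusted p = 0.00192). In bypass G1 against wild-type G1, PTR2 fell by 0.54 ± 0.130 (adjusted p = 0.00463), STP2 by 0.22 ± 0.0453 (adjusted p = 0.00187) and STP1 by 0.14 ± 0.0386 (adjusted p = 0.0108), while SSY1 (0.01, adjusted p = 0.918) and DAL81 (-0.09, adjusted p = 0.267) were not called. With replicates 1 and 2 only these values were -0.32 for PTR2, -0.14 for STP2, -0.10 for STP1 and -0.0025 for DAL81, and with replicates 3 and 4 only they were -0.80, -0.29, -0.18 and -0.17 (adjusted p = 0.0168 for DAL81). With counts summed within the pairs, STP1 was not called (adjusted p = 0.132). The trimming of Stp1 and Stp2 acts on the proteins and is not seen in these counts.

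Genes under nitrogen catabolite repression, the control that GAP1 belongs to, were tested for 15 genes other than GAP1. In wild-type S against wild-type G1, 4 rose and 8 fell (median -0.34), against 40.4% and 43.3% of all genes. DAL80, a GATA repressor, and GLN1, glutamine synthetase, fell by 2.12 ± 0.0946 and 1.77 ± 0.0820 (adjusted p = 1.92e-10 and 2.93e-10), and CAR1, arginase, rose by 1.40 ± 0.114 (adjusted p = 9.84e-08). The activator GAT1 fell by 1.05 ± 0.0577 (adjusted p = 1.62e-09) and GLN3 was not called (0.05, adjusted p = 0.442). In bypass G1 against wild-type G1, in which GAP1 was not called, 4 rose and 6 fell (median -0.03), against 26% and 28.5% of all genes. GLN3 was at 0.36 ± 0.0589 there (adjusted p = 0.000325) and GAT1 at -0.32 ± 0.0559 (adjusted p = 0.000552). Set against wild-type S, bypass G1 had 10 of these genes higher and 4 lower (median 0.38), against 43.6% and 41.5% of all genes.

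**Figure D4:**
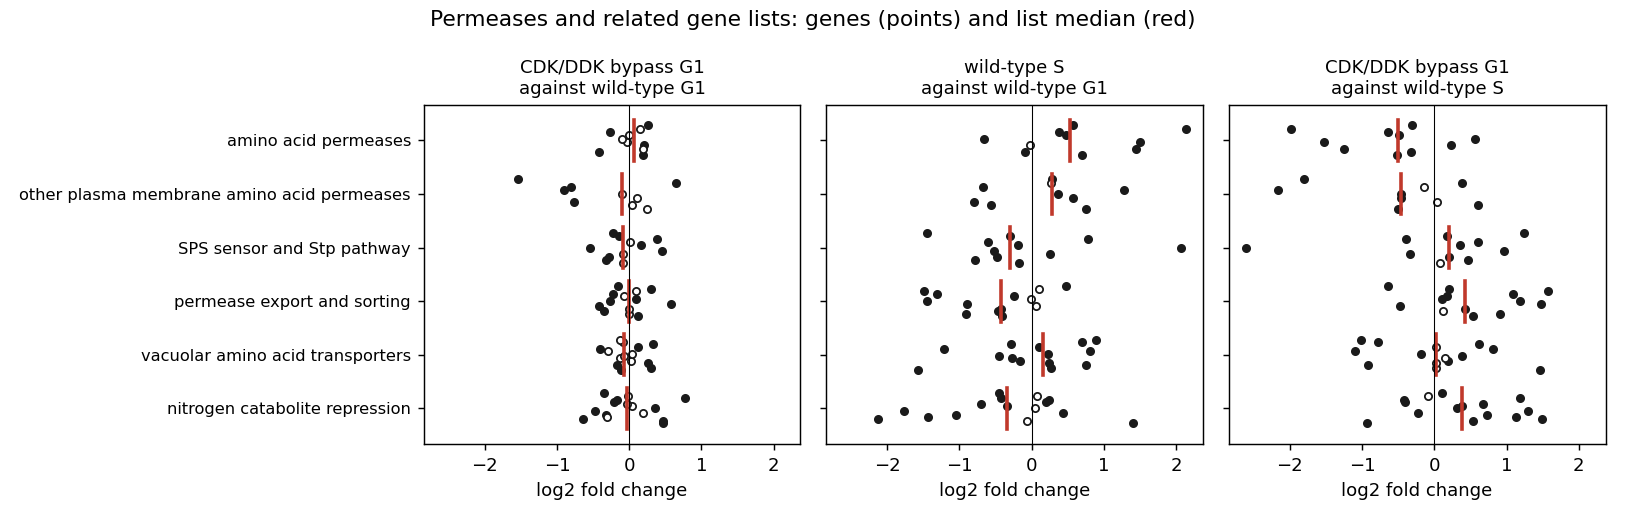
Log2 fold changes of the 10 permeases and of 5 related gene lists in the 3 comparisons, with filled points for genes called, open points for genes not called and a red bar for the median of each list. In wild-type S against wild-type G1 the median is 0.53 for the permeases, -0.31 for the sensor pathway and -0.43 for export and sorting. The sensor pathway list includes repressors and a target gene, and the export and sorting list holds mainly genes of endocytosis.

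Among 14 tested transporters of the vacuole, which exchanges amino acids with the cytosol, 4 rose and 3 fell in bypass G1 against wild-type G1 (median -0.08). In wild-type S against wild-type G1, 8 rose and 6 fell (median 0.16), and 5 were higher and 5 lower in bypass G1 than in wild-type S (median 0.03). The shares of all genes called higher and lower in these comparisons were 26% and 28.5%, 40.4% and 43.3%, and 43.6% and 41.5%. Of 10 regulators of amino acid pathways, 2 rose and 2 fell in bypass G1 against wild-type G1, 2 rose and 6 fell in wild-type S against wild-type G1, and 7 were higher and 2 lower in bypass G1 than in wild-type S. GCN4, whose site stands before 4 members, rose by 0.20 ± 0.0538 in bypass G1 (adjusted p = 0.00981) and by 0.24 ± 0.0538 in wild-type S (adjusted p = 0.00100), both against wild-type G1. LEU3, whose site stands before BAP2, fell by 0.20 ± 0.0587 in bypass G1 against wild-type G1 (adjusted p = 0.0146) and was not called in wild-type S against wild-type G1 (0.09, adjusted p = 0.182). These are transcript counts, and the activity of the Gcn4 and Leu3 proteins was not measured. In bypass G1 against wild-type G1, GCN4 was at 0.12 with replicates 1 and 2 only and at 0.28 with replicates 3 and 4 only, and LEU3 was at -0.28 with replicates 1 and 2 only and at -0.10 with replicates 3 and 4 only (adjusted p = 0.166). Neither was called there with counts summed within the pairs (adjusted p = 0.224 for GCN4 and 0.152 for LEU3). In wild-type S against wild-type G1, LEU3 was called with replicates 3 and 4 only (0.16, adjusted p = 0.0160).

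Because the groups are different strains, 7 genes used as auxotrophic markers in yeast were read as well. HIS3 was higher in bypass G1 than in wild-type G1 by 3.14 ± 0.0503 on the log2 scale (adjusted p = 7.67e-14), TRP1 by 0.90 ± 0.0900 (adjusted p = 7.98e-06) and URA3 by 0.76 ± 0.0546 (adjusted p = 6.27e-07). LEU2 and MET17 fell by 0.45 ± 0.128 and 0.58 ± 0.133 (adjusted p = 0.0114 and 0.00340), and ADE2 (0.15, adjusted p = 0.334) and LYS2 (-0.02, adjusted p = 0.799) were not called. LEU2 was at -0.13 with replicates 1 and 2 only and at -0.71 with replicates 3 and 4 only, MET17 at -0.81 and -0.31 in the same pairs, and ADE2 at 0.26 (adjusted p = 0.000651) and 0.07. With counts summed within the pairs, LEU2 and MET17 were not called (adjusted p = 0.135 and 0.104). In wild-type S against wild-type G1, URA3 rose by 0.81 ± 0.0546, MET17 by 0.38 ± 0.132, TRP1 by 0.35 ± 0.0932 and LYS2 by 0.14 ± 0.0466, HIS3 and ADE2 fell by 0.40 ± 0.0553 and 0.84 ± 0.127, and LEU2 (0.08, adjusted p = 0.566) was not called. There the values with replicates 1 and 2 only were 0.45 for LEU2, 0.53 for TRP1 and 0.04 for LYS2 (adjusted p = 0.447), and with replicates 3 and 4 only they were -0.22, 0.18 and 0.25, while summed pairs gave no call for MET17 (adjusted p = 0.141) and LYS2 (adjusted p = 0.152). These markers thus moved with the group beside the permeases, and their part in the permease results was not tested.

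The genes most like a member across the 12 samples were sought for the permease with the largest change in each comparison, by the correlation of log2(CPM + 1). For BAP2 in bypass G1 against wild-type G1 these were TEF2, translation elongation factor 1 alpha (Pearson r = 0.981), ARO1, an enzyme of aromatic amino acid synthesis (0.978), and TUM1, a sulfurtransferase (0.975). TEF2 had 2367 ± 29.7 CPM in bypass G1, 2659 ± 10.9 in wild-type S and 2757 ± 67.1 in wild-type G1, the order of groups seen for BAP2. For TAT1, which led both other comparisons, they were FKH2, a forkhead transcription factor (0.998), MIS1, a mitochondrial enzyme of folate metabolism (0.998), and GDA1, a Golgi GDPase (0.997). FKH2 had 55.5 ± 1.34 CPM in bypass G1, 122 ± 2.04 in wild-type S and 52.3 ± 7.41 in wild-type G1. These are the highest values among all genes tested over samples that share their libraries and groups, and are given as a description.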

How the data were processed

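The authors deposited raw read counts per gene for each sample, made with htseq-count 2.0.1 (strand-specific, uniquely mapped pairs only) from 42-base paired reads aligned to sacCer3 with STAR 2.7.10a and sorted with SAMtools 1.12, without normalization or filter. The lines that name no gene held 9.28% to 11.5% of all counts and were left out. Groups and replicate numbers came from the sample labels.

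Here, 92 ERCC spike-ins were set aside, genes were filtered with filterByExpr (minimum count 10), and counts were TMM-scaled and tested with edgeR 4.0.16 (glmQLFit, glmQLFTest; R 4.3.3) on all 12 samples with 3 groups. Adjusted p-values follow Benjamini and Hochberg, with genes called below 0.1. The SE is the size of the log2 fold change over the square root of the F statistic. TPM used lengths from the start to the end of each of the 6176 features matched to R64, introns included (99.8% of gene counts). Depth was 8162140 to 10545835 counts per sample. In data simulated for bypass G1 against wild-type G1 with 5662 genes, 192 of 200 changed genes were recovered and 13 others were called. Whether these numbers hold for replicates in similar pairs, or for differences as small as those of the members, was not tested.

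Samples with the same replicate number deviated together in the comparison of wild-type S with wild-type G1 (r of 0.103 to 0.177 in every pair). Correlations between samples with different replicate numbers were not computed, so these values do not show that the numbers pair the samples. For bypass G1 against wild-type G1 r was 0.0711 to 0.227, with replicate 1 the lowest, and for bypass G1 against wild-type S it was -0.00112 to 0.0130. No comparison was treated as paired in the main fit, and a replicate block was fitted as an alternative.

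All 10 members are named. From the other lists, at most the 2 largest rises and 2 largest falls among called genes of a comparison, a fixed set of regulators and all marker genes are named. The members and lists were chosen with earlier results of these data known. Alternatives were DESeq2 1.42.0, RLE factors, library totals, spike-in totals, a replicate block, other filters, a threshold of 0.05, a log2 change of 1 as the null bound (glmTreat), fits of the compared groups alone, counts summed within replicates 1 and 2 and within 3 and 4, and leaving out each replicate. The use of 1 pair of replicates only, and every alternative for named genes other than the members, were added after seeing the data. Sequence work used Python 3.11.15 with Biopython 1.88, and figures matplotlib 3.10.9.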

Additional observations from a re-analysis of the deposited data

Results flagged for a closer look

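Of 30 combinations of a member and a group looked at, 1 had a sample far from the others by Dixon's criterion, which chance alone gives in about 1 of 20 groups. GAP1 in CDK/DDK bypass G1 replicate 2 was at 96.0 CPM, against 105 to 107 CPM in the other replicates of that group. Without that replicate GAP1 stayed not called in bypass G1 against wild-type G1 (log2 fold change -0.07, adjusted p = 0.667) and stayed called in bypass G1 against wild-type S (0.60, adjusted p = 0.000392; edgeR).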

How the results depend on the processing

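In CDK/DDK bypass G1 against wild-type S all 10 permeases stayed called in their direction under 18 alternatives (all except the bound of a log2 fold change of 1 and single pairs), with adjusted p-values up to 0.0979 (TAT2, spike-in totals). The same held in wild-type S against wild-type G1 for AGP1, GNP1, BAP3, TAT1, TAT2, MUP1, GAP1 and DIP5 (up to 0.0753), and in bypass G1 against wild-type G1 for BAP2, TAT2 and CAN1 (up to 0.0948). AGP1 in the last comparison lost its call with counts summed within the pairs of replicates (0.18, adjusted p = 0.147). MUP1 lost its call there with the stricter threshold of 0.05, with only the compared groups in the fit (adjusted p = 0.103), with summed pairs (0.284) and with spike-in totals (-0.05, adjusted p = 0.744). BAP2 in wild-type S against wild-type G1 lost its call with DESeq2 (-0.06, adjusted p = 0.144), RLE factors (0.168), spike-in totals (0.896) and summed pairs (0.243), whereas CAN1 was called with library totals (-0.10, adjusted p = 0.0825). The causes were not tested.

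The number of members called in bypass G1 against wild-type G1 was 3 with summed pairs, with 1477 genes called in all against 3083, and 7 with spike-in totals, with 2786 genes called in all. Tested against a log2 fold change of 1, it was 0 there (29 of all genes), 3 in wild-type S against wild-type G1 (TAT1, BAP3 and DIP5; 855 of all genes) and 2 in bypass G1 against wild-type S (TAT1 and DIP5; 1000 of all genes). That test asks for more than the others by construction. Leaving out each replicate in turn gave 4 to 5, 8 to 9 and 10 members in these comparisons. All genes called were then 2704 to 3164, 4646 to 4731 and 4717 to 4764. The similar replicate of the same pair stayed in each of these fits. With a replicate block the members called were 5, 9 and 10, as without it, with 3110, 4760 and 4834 genes called in all, and the block changed no member's call.

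Signs turned only for values not called with all samples. In bypass G1 against wild-type G1, GNP1 was 0.0045 with DESeq2, 0.0092 with RLE factors, 0.21 with spike-in totals and 0.020 with replicates 1 and 2 only. DIP5 was 0.19 with spike-in totals and 0.082 with replicates 1 and 2 only, GAP1 was 0.12 with spike-in totals and 0.082 with replicates 3 and 4 only, and TAT1 was -0.040 with replicates 1 and 2 only. CAN1 in wild-type S against wild-type G1 was 0.0014 with DESeq2, 0.0012 with RLE factors, 0.047 with spike-in totals and 0.013 with replicates 3 and 4 only. Leaving out 1 replicate moved GNP1 between -0.022 and 0.0075, DIP5 between -0.054 and 0.012 and CAN1 between -0.065 and 0.0027. The summed level of the permeases was 1108, 1475 and 1161 TPM over uniquely mappable length in these groups in the order bypass G1, wild-type S, wild-type G1, and 2492, 3841 and 2651 as CPM, units that differ by construction.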
